A study of Mus musculus with 15 samples.

Results

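Livers of 5 Old and 5 Adult female C57BL/6 mice from the National Institute on Aging, all given the vehicle corn oil, were compared gene by gene by RNA sequencing of bulk tissue. Per the labels the Old mice, O1 to O5, were aged 22 months and the Adult mice, A1 to A5, 6 months at the start of the study, and daily oral gavage lasted 9 weeks by the treatment protocol and 8 weeks by the summary of the design. These 10 mice are every mouse of the 2 vehicle groups among the 15 sequenced, and the other 5 were Old mice given Protectin DX (PDX), a lipid mediator of the resolution of inflammation, in corn oil. The PDX mice entered the fit of the gene counts, to which they lent their spread, and no value of theirs is reported. The comparison asks how the liver transcriptome of aged females differs from that of young ones, in level and in variation between mice, in a study of PDX in aged animals.

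The Adult libraries held 36070835, 29648247, 22424383, 27236065 and 35259021 counts in A1 to A5, and the Old libraries 26637699, 25731633, 25480180, 29069346 and 26607323 counts in O1 to O5. At the smallest of these totals, 3 counts are about the limit below which a gene in a single library could not be told from absence, and values under 1 CPM, a count scaled to the size of its library, rest on few reads. Tissue was bulk liver, so fewer cells of a type and less RNA per cell cannot be told apart. The p-values of the spread and permutation tests rest on differences between these 10 mice. Those of the main gene fit rest on a spread per gene shared by all 15 mice, PDX mice included. That fit takes the spread as equal in the groups, although the median SD of log2 CPM was 0.205 in Adult and 0.525 in Old mice. This limits the gene p-values. The labels give no date or batch of tissue collection, so no comparison within batches was possible.

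Hepatocytes make most of the RNA of a liver, and their genes for drug metabolism, amino acid breakdown and secreted proteins are under hormonal, nutritional and inflammatory control. Resident macrophages, endothelial and stellate cells, bile duct cells and passing blood cells supply the rest. Single-gene measurements in aged livers therefore mix changes within hepatocytes with changes in the makeup of the tissue.

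Livers of Old mice differed from those of Adult mice in genes of many functions, and they also differed from each other far more than Adult livers did. Where members of the lists for plasma cells, acute phase proteins and the unfolded protein response passed, they were higher in Old mice, and where members of the lists for amino acid breakdown and hydroxysteroid dehydrogenases passed, they were lower. In each of these lists a part of the members passed, from 19.0% to 63.6% against 6.78% of all genes tested. Many of the larger fold changes came from O2 or O5, and a shared set of changes was present in O1, O3 and O4 as well. Old mice varied more than Adult mice by the median ratio of every functional list examined, by the least margin in the circadian clock list. There the median SD itself was lower in Old mice. Without O2 and O5 the ratio was below 1 in the clock, immediate early and inflammatory cytokine lists.

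O5 was the Old mouse farthest from its group, and O2 was next, close to O1. Over the 15808 genes tested, the median distance of a mouse's log2 CPM from the mean of the other 4 mice of its group was 0.181, 0.161, 0.142, 0.195 and 0.140 in A1 to A5 and 0.409, 0.434, 0.338, 0.315 and 0.689 in O1 to O5. Every Old mouse was farther from its group than any Adult mouse. The means were 0.164 ± 0.0242 (SD, n = 5) in Adult and 0.437 ± 0.149 (SD, n = 5) in Old, a difference of 0.273 (exact two-sided permutation test, p = 0.00794, the smallest that 5 against 5 can give). Distances within a group share their reference mice and so are not independent. The test treats them as independent, which limits what its p-values for distance can show. Without O2 and O5 the distances were 0.289 in O1, 0.356 in O3 and 0.207 in O4, and the difference in means was 0.120 (exact two-sided permutation test, p = 0.0357, the smallest that 3 against 5 can give). There each Old mouse was measured from the remaining Old mice, fewer than the 4 behind each Adult distance. A mean of fewer mice is noisier and can by itself enlarge the Old distances. O5 was the Old mouse farthest from its group mean in 7387 genes (46.7%) and O2 in 4087 genes (25.9%). The scaling factor of O2 was 1.33, against 0.958 to 1.00 in the Adult mice. Per the labels, O1 was robust and O2 to O5 were frail, and the frailty index was 0.17, 0.11, 0.19, 0.33 and 0.56 in O1 to O5. The labels' change in body weight was 3.07% in O2 and -3.55% in O5. Their part in the result was not tested.

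In edgeR's quasi-likelihood test, 1072 of 15808 genes (6.78%) differed between Old and Adult mice at an adjusted p under 0.05, 745 (4.71%) higher and 327 (2.07%) lower in Old mice, and 4385 genes had an unadjusted p under 0.05. Of the genes that passed, 929 were protein coding. A fit of the 10 Old and Adult mice alone, without the spread of the PDX mice, gave 110 calls, 87 higher and 23 lower. Of 144 called genes named in the text, none of them named for spread, 36 were among these calls. Without O2 and O5, 1102 genes (6.97%) passed, 744 (4.71%) higher and 358 (2.26%) lower, but these were in part different genes. Unless stated, values without O2 and O5 come from this fit, which keeps the PDX mice, and a fit of the 8 mice left without O2, O5 and PDX mice, chosen after seeing the data, called 578 higher and 287 lower genes. The same 628 genes passed with and without O2 and O5, which is 58.6% of the 1072 and 57.0% of the 1102, and 432 of them were higher and 196 lower. In all 745 higher and 327 lower genes, the mean of O1, O3 and O4 lay on the same side of the Adult mean as the fold change. For 1285 genes (8.13%) the 5 Old and the 5 Adult mice did not overlap, 577 (3.65%) with all Old mice higher and 708 (4.48%) with all Old mice lower. Of the genes that passed, 697 also had no overlap, 428 higher and 269 lower. The median log2 fold change over all genes tested was 0.07, and 0.01 without O2 and O5. Higher genes made up 69.5% of the calls by edgeR and 49.4% by limma voom with sample quality weights.

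The number of calls moved with single libraries. Leaving out A1, A2, A3, A4 or A5 left 255, 192, 199, 205 or 156 genes past the threshold. Leaving out O1, O2, O3, O4 or O5 gave 1581, 680, 2154, 1652 or 2103 genes. The alternatives followed 144 of the genes named in the text that passed with all mice, none of them named for spread. Of these 144, 57, 46, 45, 45 and 44 still passed without A1, A2, A3, A4 and A5. Without O1, O2, O3, O4 and O5, 132, 89, 142, 135 and 139 did. Cxcl1, Mmp12, Derl3, Gm15446, Sult2a6 and Gm28438 passed under all 20 alternatives tried. List members beyond those that the rule of choice names, and Sco2, were named after their values were seen.

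Adcy1 (chromosome 11, 7063489 to 7178506, build GRCm38), an adenylyl cyclase gene, stood at 3.74, 2.33, 4.01, 0.439 and 2.21 CPM in A1 to A5 and at 94.5, 49.0, 12.5, 53.0 and 62.1 CPM in O1 to O5. O3 was the lowest Old mouse and still above every Adult mouse, among which A4 was low. Adcy1 rose (log2 fold change 4.41 ± 0.61 (SE), edgeR adjusted p = 0.00295), and its fold change without O2 and O5 was 4.40. Slc41a2 (chromosome 10, 83230848 to 83337882), a magnesium transporter gene, stood at 20.9, 12.9, 16.5, 12.0 and 15.3 CPM in A1 to A5 and at 196, 63.0, 46.9, 184 and 40.7 CPM in O1 to O5. O1 and O4 were the high mice, O2, O3 and O5 were lower, and no Old mouse overlapped the Adult range. The rise of Slc41a2 (log2 fold change 2.77 ± 0.47 (SE), edgeR adjusted p = 0.00784) was 3.20 without O2 and O5.

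Gpx3 (chromosome 11, 54902453 to 54910377), the secreted glutathione peroxidase, stood at 6.46, 5.50, 7.48, 6.29 and 4.91 CPM in A1 to A5 and at 68.2, 19.6, 19.7, 23.1 and 109 CPM in O1 to O5. O1 and O5 were high, O2, O3 and O4 lay close to each other, and the groups did not overlap. Gpx3 rose (log2 fold change 2.97 ± 0.50 (SE), edgeR adjusted p = 0.00768), by 2.60 without O2 and O5. Cxcl1 (chromosome 5, 90891241 to 90893115), a chemokine that attracts neutrophils, stood at 11.9, 3.95, 7.71, 9.33 and 10.6 CPM in A1 to A5 and at 74.0, 25.1, 41.0, 66.3 and 38.0 CPM in O1 to O5. O2 was the lowest of the Old mice and O1 the highest, with no overlap, and Cxcl1 rose (log2 fold change 2.49 ± 0.41 (SE), edgeR adjusted p = 0.00675). Ide (chromosome 19, 37268743 to 37337852), the insulin-degrading enzyme, stood at 68.0, 57.6, 57.8, 70.5 and 60.0 CPM in A1 to A5 and at 124, 97.8, 136, 139 and 73.6 CPM in O1 to O5. O5 was just above the highest Adult mouse, and O1, O3 and O4 were the highest. Ide rose (log2 fold change 0.86 ± 0.16 (SE), edgeR adjusted p = 0.011), and without O2 and O5 its log2 fold change was 1.10.

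Nid1, Col15a1 and Mmp12, of basement membrane and matrix, were among the rises shared by the Old mice. In the list of 42 extracellular matrix genes 14 rose (33.3%, against 6.78% of all genes). Without O2 and O5, 5 of the list rose, and 11 passed in the fit of 8 mice. Nid1 (chromosome 13, 13437551 to 13512269), a basement membrane linker, stood at 20.4, 19.1, 20.1, 18.3 and 17.2 CPM in A1 to A5 and at 87.2, 75.6, 30.7, 62.7 and 47.8 CPM in O1 to O5. O3 was the lowest Old mouse and all 5 were above the Adult mice. Nid1 rose (log2 fold change 1.68 ± 0.32 (SE), edgeR adjusted p = 0.0141). Col15a1, a collagen of basement membranes, also rose with no overlap (log2 fold change 1.32 ± 0.22 (SE), edgeR adjusted p = 0.008). Mmp12 (chromosome 9, 7344381 to 7369499), the macrophage elastase, stood at 0.225, 0.176, 0.684, 0.512 and 0.344 CPM in A1 to A5 and at 3.31, 1.93, 6.56, 3.79 and 9.13 CPM in O1 to O5. All Adult mice were under 1 CPM and all Old mice above it, and Mmp12 rose (log2 fold change 3.69 ± 0.65 (SE), edgeR adjusted p = 0.00937).

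Other genes of the same kind belong to nucleotide synthesis, bile acid uptake and early transcription factors. Cad, which encodes the enzyme that starts pyrimidine synthesis, stood at 13.4, 10.3, 9.94, 13.1 and 12.1 CPM in A1 to A5 and at 27.8, 28.7, 14.4, 36.0 and 31.7 CPM in O1 to O5. O3 was again the Old mouse nearest to the Adult mice, with no overlap, and Cad rose (log2 fold change 1.23 ± 0.21 (SE), edgeR adjusted p = 0.00835). Aprt, for adenine salvage, rose as well (log2 fold change 1.04 ± 0.19 (SE), edgeR adjusted p = 0.011). Slc10a2, the bile acid uptake carrier best known from ileum, stood at 13.4, 8.88, 9.30, 8.16 and 6.74 CPM in A1 to A5 and at 36.0, 49.1, 27.6, 38.3 and 16.9 CPM in O1 to O5. O5 was the lowest Old mouse, above A1 as the highest Adult mouse, and Slc10a2 rose (log2 fold change 1.85 ± 0.33 (SE), edgeR adjusted p = 0.011). Btg2, an early response gene that restrains proliferation, stood at 13.4, 21.2, 15.6, 13.4 and 24.3 CPM in A1 to A5 and at 44.1, 85.8, 91.5, 51.5 and 276 CPM in O1 to O5. O5 was far above the other Old mice, which were all above the Adult mice, and Btg2 rose (log2 fold change 2.64 ± 0.48 (SE), edgeR adjusted p = 0.011). Junb and Jun, subunits of the AP-1 transcription factor, rose by 1.51 and 1.79 on the log2 scale (edgeR adjusted p = 0.011 and 0.028), and neither overlapped between the groups.

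**Figure D1:**
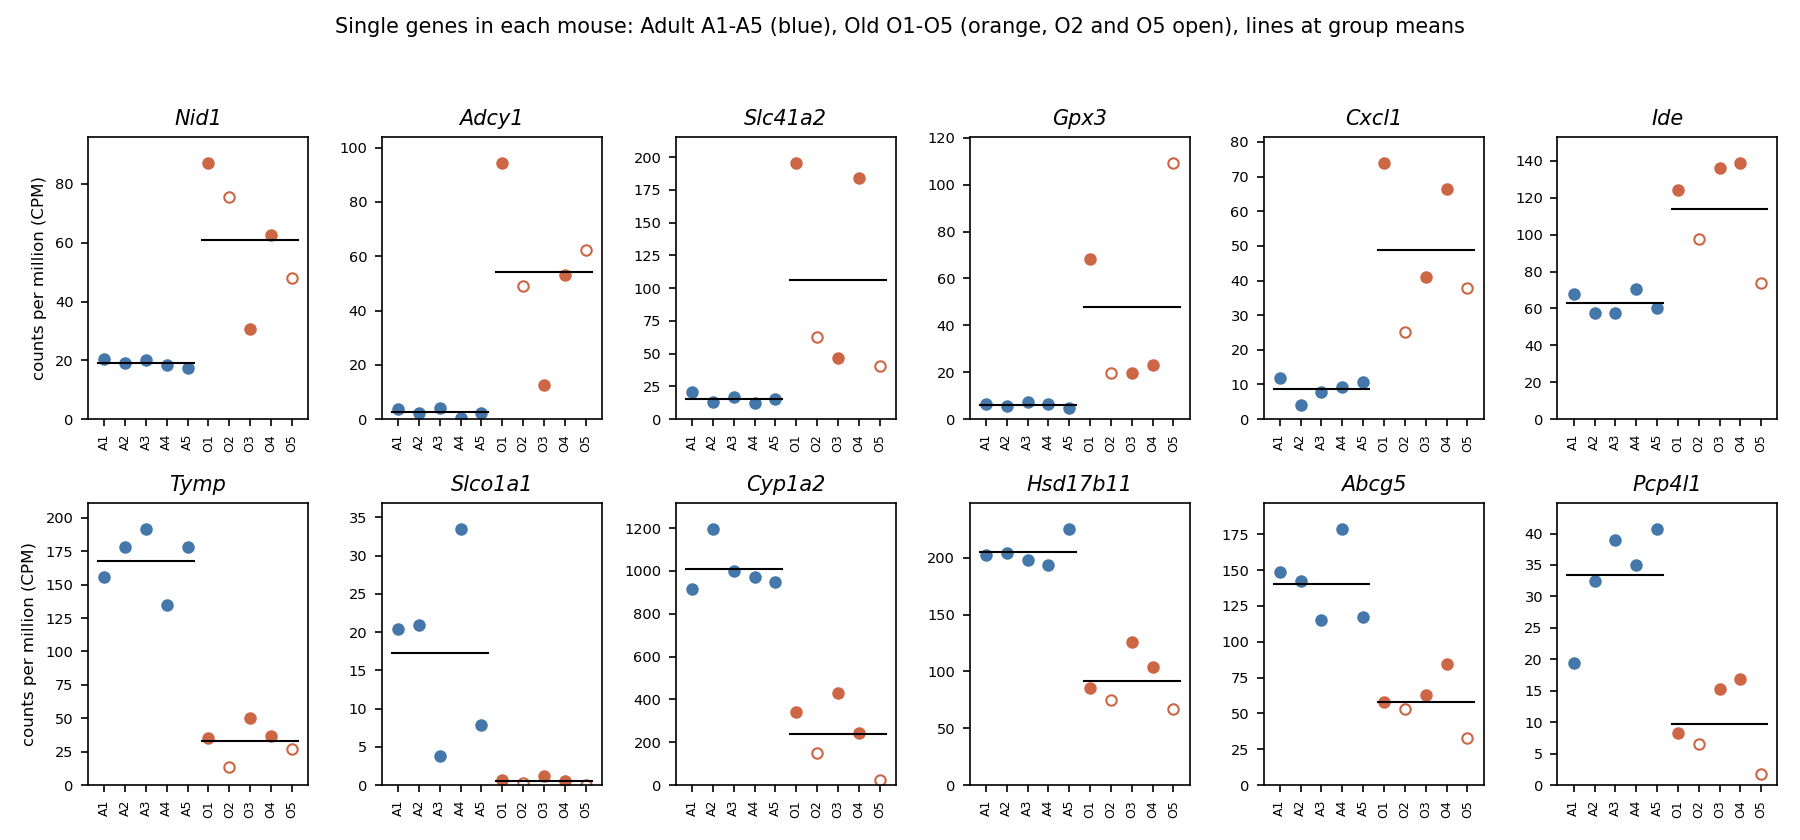
CPM (vertical axes from 0) of 12 genes in each Adult mouse (A1 to A5, blue) and each Old mouse (O1 to O5, orange, with O2 and O5 as open circles); black lines mark group means. All 12 genes passed edgeR's test and had no overlap of the groups: Nid1 lay between 17.2 and 20.4 CPM in Adult and between 30.7 and 87.2 CPM in Old mice, and Tymp between 135 and 192 CPM in Adult and between 13.6 and 50.5 CPM in Old mice.

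Tymp (chromosome 15, 89371931 to 89377039), thymidine phosphorylase, stood at 155, 178, 192, 135 and 178 CPM in A1 to A5 and at 35.4, 13.6, 50.5, 36.5 and 27.3 CPM in O1 to O5. The highest Old mouse, O3, was below the lowest Adult mouse, A4, and O2 was the lowest. Tymp fell (log2 fold change -2.36 ± 0.28 (SE), edgeR adjusted p = 0.00102), by -2.03 without O2 and O5. Its annotation overlaps that of Sco2 by 1916 bases on the same strand, so reads in the overlap could not be assigned to either, and Sco2 was lower too (log2 fold change -1.40 ± 0.20 (SE), edgeR adjusted p = 0.00372). Slco1a1 (chromosome 6, 141907282 to 141946962), an organic anion uptake carrier, stood at 20.5, 21.0, 3.78, 33.5 and 7.92 CPM in A1 to A5 and at 0.679, 0.234, 1.13, 0.557 and 0 CPM in O1 to O5. A3 and A5 were low among the Adult mice and O5 had no count, and Slco1a1 fell (log2 fold change -5.07 ± 0.79 (SE), edgeR adjusted p = 0.00569). Hsd17b11 (chromosome 5, 103989762 to 104021919), a hydroxysteroid dehydrogenase of lipid droplets, stood at 203, 204, 198, 194 and 226 CPM in A1 to A5 and at 85.2, 75.0, 125, 104 and 66.7 CPM in O1 to O5. O3 was the highest Old mouse and O5 the lowest, with no overlap, and Hsd17b11 fell (log2 fold change -1.17 ± 0.19 (SE), edgeR adjusted p = 0.00675).

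Cyp1a2 (chromosome 9, 57676937 to 57683703), a cytochrome P450 of pericentral hepatocytes, stood at 917, 1198, 1001, 974 and 948 CPM in A1 to A5 and at 344, 151, 431, 244 and 25.1 CPM in O1 to O5. O5 was lowest and O3 highest of the Old mice, and all were below the Adult mice. Cyp1a2 fell (log2 fold change -2.08 ± 0.48 (SE), edgeR adjusted p = 0.0262), by -1.56 without O2 and O5. Abcg5 (chromosome 17, 84658234 to 84683011), a subunit of the canalicular sterol exporter, stood at 149, 142, 115, 179 and 117 CPM in A1 to A5 and at 57.9, 53.0, 62.9, 84.2 and 32.6 CPM in O1 to O5. O4 was the highest Old mouse, and Abcg5 fell (log2 fold change -1.27 ± 0.25 (SE), edgeR adjusted p = 0.0148). Pcp4l1 (chromosome 1, 171173262 to 171196268), a small protein related to the calmodulin-binding Pcp4, stood at 19.4, 32.5, 38.9, 35.1 and 40.8 CPM in A1 to A5 and at 8.32, 6.61, 15.3, 16.8 and 1.70 CPM in O1 to O5. O5 was lowest, O4 came nearest to A1, the lowest Adult mouse, and Pcp4l1 fell (log2 fold change -1.77 ± 0.47 (SE), edgeR adjusted p = 0.038).

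Nrep, first described in regenerating neurons, stood at 15.1, 14.6, 6.25, 33.1 and 13.6 CPM in A1 to A5 and at 4.97, 4.16, 4.79, 3.38 and 0.974 CPM in O1 to O5. A3 was low and A4 high among the Adult mice, O5 was low among the Old mice, and Nrep fell (log2 fold change -2.18 ± 0.43 (SE), edgeR adjusted p = 0.0153). Adamts7, a secreted metalloproteinase, stood at 11.3, 18.5, 16.3, 15.2 and 23.2 CPM in A1 to A5 and at 1.44, 2.96, 7.28, 3.31 and 8.62 CPM in O1 to O5. O3 and O5 were the higher Old mice and the groups did not overlap, and Adamts7 fell (log2 fold change -1.84 ± 0.48 (SE), edgeR adjusted p = 0.0376). Gls2, the glutaminase of periportal hepatocytes, stood at 725, 823, 824, 744 and 759 CPM in A1 to A5 and at 169.8, 121, 501, 241 and 455 CPM in O1 to O5. O3 and O5 were less reduced than O1, O2 and O4, and Gls2 fell (log2 fold change -1.38 ± 0.35 (SE), edgeR adjusted p = 0.0339). Ugp2, which makes UDP-glucose, fell with no overlap (log2 fold change -1.04 ± 0.19 (SE), edgeR adjusted p = 0.0112).

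Gene families with near-identical copies held some of the smallest p-values, and their reads could have been split between copies, so the identity of the gene is uncertain. Sult2a6, of the hydroxysteroid sulfotransferase cluster (chromosome 7, 14222403 to 14254870), stood at 7.22, 5.18, 14.4, 3.55 and 10.0 CPM in A1 to A5 and at 0, 0, 0, 0 and 0.0722 CPM in O1 to O5. Among the Old mice O5 alone held reads of it, and Sult2a6 was lower by edgeR's test (adjusted p = 4.57e-05). Sult2a4 stood at 5.06, 2.57, 9.48, 1.90 and 7.49 CPM in A1 to A5 and at 0.382, 0.263, 0.113, 0.149 and 0.144 CPM in O1 to O5 and fell (log2 fold change -4.63 ± 0.48 (SE), edgeR adjusted p = 0.000333). Sult2a2, in the same cluster, stood at 59.2, 34.6, 106, 22.6 and 84.9 CPM in A1 to A5 and at 278, 152, 286, 369 and 145 CPM in O1 to O5 and rose (log2 fold change 2.00 ± 0.51 (SE), edgeR adjusted p = 0.0328). A3 and A5 were high and A4 low within the Adult group in all 3 genes. Of the 8 Sult2a genes tested, 1 rose and 2 fell, and Sult2a1 had a log2 fold change of 2.21 with an edgeR adjusted p of 0.0501. Other genes with the smallest p-values were Gm15446, a predicted protein-coding gene that stood at 0.169, 0.0352, 0.0456, 0.0366 and 0 CPM in A1 to A5 and at 4.67, 2.69, 3.51, 4.31 and 1.95 CPM in O1 to O5, and Gm28438, an annotated pseudogene at 2.25, 1.51, 2.55, 1.76 and 2.50 CPM in A1 to A5 and at 0.0425, 0, 0, 0 and 0.0361 CPM in O1 to O5. Neither overlapped between the groups, and edgeR's adjusted p was 6e-05 and 0.000257. Gm16867, a predicted protein-coding gene with no count in any Adult mouse, stood at 0.255, 0.761, 0.829, 0.706 and 0.505 CPM in O1 to O5 (edgeR adjusted p = 0.00203).

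Counts of called genes in 31 functional lists, 18 marker lists and single gene families are to be set beside the 6.78% of all genes tested that passed. Among marker lists with calls the share was lowest in the T and NK cell (7.14%), hepatocyte (10.0%) and periportal (10.0%) lists. Among functional lists the share was highest in the chemokine list (41.4%) and below 6.78% in the lists for complement and coagulation (5.41%), the growth hormone axis (5.26%), heat shock proteins (5.00%), iron and metals (4.76%), the circadian clock (4.55%) and interferon-stimulated genes (0%, 0 of 40).

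Genes of sex-biased expression passed in both directions. A1bg, a female-biased plasma protein gene, stood at 152, 59.1, 158, 57.3 and 264 CPM in A1 to A5 and at 7278, 778, 727, 9746 and 0.397 CPM in O1 to O5. O1 and O4 were far above the Adult mice, O2 and O3 were above them by less, and O5 was below all of them, so the groups overlapped. A1bg rose (log2 fold change 4.75 ± 1.33 (SE), edgeR adjusted p = 0.0453), by 5.43 without O2 and O5. Gm7086, an annotated pseudogene on the same chromosome, stood at 0.871, 0.423, 0.365, 0.549 and 1.00 CPM in A1 to A5 and at 8380.5, 2.55, 17.5, 649 and 0.289 CPM in O1 to O5 and rose (log2 fold change 11.43 ± 2.48 (SE), edgeR adjusted p = 0.0225). It lies 150323 bases from A1bg on the opposite strand and was highest in the same mice, O1 and O4. Serpina1e, an alpha-1 antitrypsin copy with near-identical relatives, stood at 239, 199.7, 96.0, 92.3 and 68.5 CPM in A1 to A5 and at 1494, 737, 509.9, 968 and 315 CPM in O1 to O5 and rose (log2 fold change 2.53 ± 0.53 (SE), edgeR adjusted p = 0.0189). Of 23 female-biased genes tested 1 was higher and 1 lower (median log2 fold change -0.36), and of 21 male-biased genes 1 was higher and 3 were lower (median -0.65), shares of 8.70% and 19.0%. With O1, O3 and O4 alone, 5 female-biased genes were higher and 1 lower, with the median at 0.06, and 1 male-biased gene was higher and 4 lower. Of 19 major urinary protein (Mup) genes tested, whose copies are near-identical, Mup15 alone passed, a share below that of all genes, standing at 1.18, 0.388, 0.274, 1.21 and 0.172 CPM in A1 to A5 and at 130.0, 40.3, 10.2, 33.7 and 0 CPM in O1 to O5, a rise in O1 to O4 and 0 in O5. Without O2 and O5, Mup17, Mup18 and Mup19 passed as well, all higher. In the fit of 8 mice Mup6 and Mup16 passed too as higher, and Mup3 and Mup20 passed as lower. As a share of all counts, Mup genes held 0.181% ± 0.0130 (SD, n = 5) in Adult and 0.0778% ± 0.0559 (SD, n = 5) in Old mice, a difference of -0.103 (exact two-sided permutation test, adjusted p over 6 shares = 0.0238). It was -0.0734 without O2 and O5, where it no longer passed, and in groups of unequal size the side of the threshold depended on the form of the two-sided p. Mup3, the most abundant Mup gene tested, had means of 1617.3 CPM in Adult and 304.6 CPM in Old mice. Mup16, Mup17 and Mup18 had higher means in Old mice (25.2, 195.4 and 84.1 CPM against 3.40, 5.45 and 3.60 CPM).

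Abundant secreted proteins varied between Old mice. Albumin (Alb) took 10.6 to 11.2% of counts in the Adult mice and 15.9, 8.72, 11.5, 13.2 and 3.62% in O1 to O5. Genes of the acute phase list, which counts albumin as its most abundant member, held 18.3, 17.9, 17.7, 17.0 and 17.6% of counts in A1 to A5 and 26.9, 18.1, 19.5, 26.0 and 22.7% in O1 to O5, with A1 above O2 and otherwise no overlap (exact two-sided permutation test, adjusted p over 6 shares = 0.0318). By summed CPM, which includes the scaling factors, O2 stood at 136130.9, below the Adult mice at 168931.2 to 186782.1. O3 was just above them at 186837.2 CPM. Of these sums albumin alone gave 105807.3 to 115895.6 CPM in Adult mice. In O1 to O5 it gave 180124.9, 65644.8, 110099.5, 142189.4 and 34723.7 CPM. The shares and sums of the list therefore follow albumin in large part, and the other members were not summed apart from it. Hp, haptoglobin, stood at 2364, 2635, 2782, 2348 and 2612 CPM in A1 to A5 and at 6188, 4944, 3908, 7769.9 and 15573 CPM in O1 to O5, and Hpx, hemopexin, at 4161, 3666, 3647, 3646 and 3752 CPM in A1 to A5 and at 9089.9, 8603, 5149.8, 10126 and 28289.6 CPM in O1 to O5. O5 was highest in both, the Old mice were above the Adult mice in both, and both rose, Hp with a log2 fold change 1.59 ± 0.35 (SE), edgeR adjusted p = 0.0233 and Hpx with a log2 fold change 1.70 ± 0.43 (SE), edgeR adjusted p = 0.0319. Cp, ceruloplasmin, rose by 1.35 (edgeR adjusted p = 0.0186). In the list of 30 acute phase genes 8 passed, all higher, median log2 fold change 1.07, and 9 were higher without O2 and O5. The 10 most abundant genes of each mouse held 20.8% ± 0.365 (SD, n = 5) of counts in Adult and 24.1% ± 3.60 (SD, n = 5) in Old mice (exact two-sided permutation test, p = 0.0952, adjusted 0.114). Globin genes held 0.0182% ± 0.00328 (SD, n = 5) and 0.0414% ± 0.05 (SD, n = 5), most of it in O2 (exact two-sided permutation test, p = 0.437). After thinning to equal depth, 14648.6 ± 73.8 (SD, n = 5) genes in Adult and 15218.6 ± 653 (SD, n = 5) in Old mice held at least 10 counts (exact two-sided permutation test, adjusted p = 0.0357). With O1, O3 and O4 alone the difference was 272.7 genes and did not pass. Without A2, A5, O3, O4 or O5 singly the acute phase difference, 4.96 percentage points with all mice, was 4.12 to 5.75 and no longer passed. The gene number difference, 570.0 with all mice, passed without A3, A4 or O1 and not without any other single mouse, and without O2 it was 294.6 genes. The difference in the 10 most abundant genes passed without O2 (4.40 percentage points). The acute phase and gene number calls with mice left out depended on the form of the two-sided p.

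Several endoplasmic reticulum chaperones rose, and others did not pass. In the list of 30 unfolded protein and integrated stress response genes 11 passed, all higher, median log2 fold change 0.59, and 12 were higher without O2 and O5 with a median of 0.31, against 0.07 and 0.01 over all genes tested. Calr, a calcium-binding chaperone of the endoplasmic reticulum, stood at 758, 766, 646, 651 and 721 CPM in A1 to A5 and at 2695, 961, 1159, 2061 and 1575 CPM in O1 to O5. O1 and O4 were highest and O2 lowest of the Old mice, with no overlap, and Calr rose (log2 fold change 1.25 ± 0.25 (SE), edgeR adjusted p = 0.0154). Sdf2l1, a partner of the chaperone Hspa5, stood at 32.1, 18.9, 17.1, 20.0 and 25.8 CPM in A1 to A5 and at 167, 59.3, 40.9, 103 and 67.3 CPM in O1 to O5. O3 was lowest of the Old mice and above A1, the highest Adult mouse, and Sdf2l1 rose (log2 fold change 1.94 ± 0.35 (SE), edgeR adjusted p = 0.011). Derl3, of the degradation channel for misfolded proteins, stood at 1.21, 0.458, 0.0912, 0.512 and 0.545 CPM in A1 to A5 and at 12.3, 4.33, 1.58, 18.6 and 21.5 CPM in O1 to O5 and rose (log2 fold change 4.32 ± 0.74 (SE), edgeR adjusted p = 0.00835), and it is also a plasma cell gene. Hspa5 stood at 1219, 897, 844, 639 and 1048 CPM in A1 to A5 and at 2005, 1226, 1200.3, 1747 and 2299 CPM in O1 to O5, with O3 below A1, and rose (log2 fold change 0.87 ± 0.23 (SE), edgeR adjusted p = 0.0405). Ddit3 and Atf4, of the stress-induced branch, had log2 fold changes of 0.58 and 0.26 and did not pass, while Phgdh and Psat1 of the same list passed as higher.

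The promoters of these genes were searched for the endoplasmic reticulum stress element, a known binding site of the response, because the rises included its classical targets. The element was taken as CCAAT and CCACG with any 9 bases between them, on either strand, from 250 bases before to 50 bases after the transcript start, in RefSeq annotation of GRCm38.p6. It was present in 39 of 32851 promoters (0.119%), in 20 of 11068 tested genes with a promoter (0.181%), in 6 of 505 genes higher in Old mice (1.19%) and in 0 of 236 genes lower in Old mice. In the unfolded protein list, 7 of 28 genes with a promoter carried it, among them 5 of the 10 that rose. The 6 higher genes were Calr, Creld2, Derl3, Hsp90b1, Hspa5 and Pdia6. Their windows are given on the gene's strand with the element in capitals and 20 bases on each side in lower case, and an element on the opposite strand reads as its reverse complement, from CGTGG to ATTGG. A match is a description and shows no binding. Hsp90b1 has 2 copies, 1 on each strand, and the element lies on the gene's strand in Hspa5 and Pdia6 and on the opposite strand in Calr, Creld2 and Derl3. The windows lie on chromosome 8, 84847055 to 84847113 (Calr, minus strand), chromosome 15, 88819500 to 88819558 (Creld2, plus), chromosome 10, 75893222 to 75893280 (Derl3, plus), chromosome 10, 86705513 to 86705676 (Hsp90b1, minus), chromosome 2, 34772005 to 34772063 (Hspa5, plus) and chromosome 12, 17266471 to 17266529 (Pdia6, plus).
Calr: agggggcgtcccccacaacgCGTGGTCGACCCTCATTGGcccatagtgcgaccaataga
Creld2: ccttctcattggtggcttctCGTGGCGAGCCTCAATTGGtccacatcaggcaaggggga
Derl3: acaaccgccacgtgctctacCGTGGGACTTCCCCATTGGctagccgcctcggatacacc
Hsp90b1: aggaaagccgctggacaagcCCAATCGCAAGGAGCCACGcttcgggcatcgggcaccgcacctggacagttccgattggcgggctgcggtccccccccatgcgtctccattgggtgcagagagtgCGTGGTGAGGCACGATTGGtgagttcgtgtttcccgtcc
Hspa5: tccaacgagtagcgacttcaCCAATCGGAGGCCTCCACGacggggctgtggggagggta
Pdia6: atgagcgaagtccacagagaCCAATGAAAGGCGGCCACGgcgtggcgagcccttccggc

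Of 45 urea cycle and amino acid genes tested, 10 passed and all fell (among them Ivd, Gpt, Hpd, Gls2, Kynu, Amdhd1, Ass1, Uroc1 and Oat), the median log2 fold change was -0.66, and 11 fell without O2 and O5. The summed level of the list was 29559.1 to 38925.9 CPM in Adult mice and 19997.0, 10432.3, 28011.6, 22158.2 and 43605.8 CPM in O1 to O5, so O5 lay above the Adult mice. In 20 of the 45 genes all Old mice were below all Adult mice, as in 4.48% of all genes tested. Ass1, of the urea cycle, stood at 1384, 2078, 1785, 1381 and 1567 CPM in A1 to A5 and at 411, 253, 1121, 542 and 1119 CPM in O1 to O5. O3 and O5 were less reduced than O1, O2 and O4, as for Gls2, and Ass1 fell (log2 fold change -1.25 ± 0.35 (SE), edgeR adjusted p = 0.0476). Cps1, the most abundant gene of the list, did not pass (log2 fold change -0.63, edgeR adjusted p = 0.245). Of 27 genes of methionine, one-carbon and choline metabolism 1 rose (Mthfd2) and 1 fell (Inmt), with a median of -0.44, and without O2 and O5 1 rose and 5 fell. Its summed level was also above the Adult mice in O5 (27452.7 CPM against 17086.7 to 22152.3 CPM). Inmt, an indolethylamine methyltransferase gene, stood at 751, 785, 671, 872 and 736 CPM in A1 to A5 and at 178, 102, 402, 142 and 17.5 CPM in O1 to O5 and fell (log2 fold change -2.18 ± 0.54 (SE), edgeR adjusted p = 0.031).

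Of 43 conjugation enzymes 11 fell and 1 rose (Sult1e1), the median log2 fold change was -0.67, and 14 fell and 2 rose without O2 and O5. The 11 were Sult1d1, Gstm1, Ugt2b5, Mgst1, Gstk1, Inmt, Ugt2b34, Gsta4, Ugt2a3, Ugt2b35 and Ugt2b1, some of which have close copies. Gstm1, a glutathione transferase gene, stood at 1460.0, 1628, 1528, 1126 and 1384 CPM in A1 to A5 and at 645, 624, 851, 682 and 363 CPM in O1 to O5. All Old mice were below all Adult mice, and Gstm1 fell (log2 fold change -1.17 ± 0.26 (SE), edgeR adjusted p = 0.0246). Of 44 cytochrome P450 genes 5 fell (Cyp2d22, Cyp2e1, Cyp4f15, Cyp1a2 and Cyp4v3) and 1 rose (Cyp1b1), with a median of -0.59, and without O2 and O5 6 fell and 5 rose. Cyp2e1, the most abundant of them, stood at 6823, 5811, 5882, 7592 and 6069 CPM in A1 to A5 and at 2551, 1235, 3542, 2834 and 1178 CPM in O1 to O5. O2 and O5 were lowest, no Old mouse reached the Adult range, and Cyp2e1 fell (log2 fold change -1.50 ± 0.31 (SE), edgeR adjusted p = 0.0184). Of 21 hydroxysteroid dehydrogenase genes 4 passed and all fell (Hsd17b11, Hsd3b2, Akr1c19 and Akr1d1), with a median of -0.62, and 8 fell without O2 and O5. Of 27 antioxidant targets of NRF2 5 fell (Gpx1, Gclc, Abcc2, Prdx6 and Cbr1) and Gpx3 alone rose, with a median of -0.24, and without O2 and O5 6 fell and 1 rose. Gpx1, the intracellular glutathione peroxidase, stood at 1756, 1669, 1729, 1596 and 1929 CPM in A1 to A5 and at 959.8, 845, 1179.7, 1177 and 564 CPM in O1 to O5, opposite in direction to Gpx3, and fell (log2 fold change -0.88 ± 0.19 (SE), edgeR adjusted p = 0.0213).

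Of 39 hepatocyte transporters 2 rose (Slc41a2 and Slc10a2) and 5 fell (Slco1a1, Abcg5, Abcg8, Abcc2 and Slc16a7), median log2 fold change -0.41, and without O2 and O5 5 rose and 4 fell. Glucose and glycogen metabolism had 1 rise (Pkm) and 3 falls (Ugp2, Pdk2 and Fbp1) among 43 genes, median -0.13 (2 and 2 without O2 and O5), and purine and pyrimidine metabolism 3 rises (Cad, Aprt and Ctps) and 1 fall (Tymp) among 32, median -0.06 (2 and 3 without O2 and O5). In insulin clearance and signaling, Ide and Irs2 rose and Irs1 and Ceacam1 fell among 16 genes, and without O2 and O5 Ide alone passed, joined by Irs1 in the fit of 8 mice. Irs2, an insulin receptor substrate, stood at 29.1, 15.2, 20.0, 30.4 and 34.8 CPM in A1 to A5 and at 26.9, 38.2, 42.5, 97.6 and 162 CPM in O1 to O5. O5 and O4 were high, O1 lay inside the Adult range, and the rise (log2 fold change 1.50 ± 0.40 (SE), edgeR adjusted p = 0.0391) was 1.11 without O2 and O5. Among 19 growth hormone and IGF axis genes Socs3 alone passed and rose (log2 fold change 1.40 ± 0.35 (SE), edgeR adjusted p = 0.0322), and without O2 and O5 it passed only in the fit of 8 mice. Among 26 hepatokines Gpnmb and Enho rose, and Enho, which encodes adropin, stood at 12.4, 13.3, 10.4, 12.1 and 15.2 CPM in A1 to A5 and at 83.7, 25.2, 19.2, 59.7 and 10.2 CPM in O1 to O5, with O5 below all Adult mice. In the list of 21 iron and metal genes Cp alone passed. Trf, transferrin, had no overlap of the groups and a log2 fold change of 0.60 (edgeR adjusted p = 0.0929). Hamp2, a hepcidin gene, stood at 667, 900.2, 1158, 689 and 827 CPM in A1 to A5 and at 307, 2.17, 30.8, 35.4 and 0.685 CPM in O1 to O5. Old mice were all below the lowest Adult mouse, and it did not pass (edgeR adjusted p = 0.0754).

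**Figure D2:**
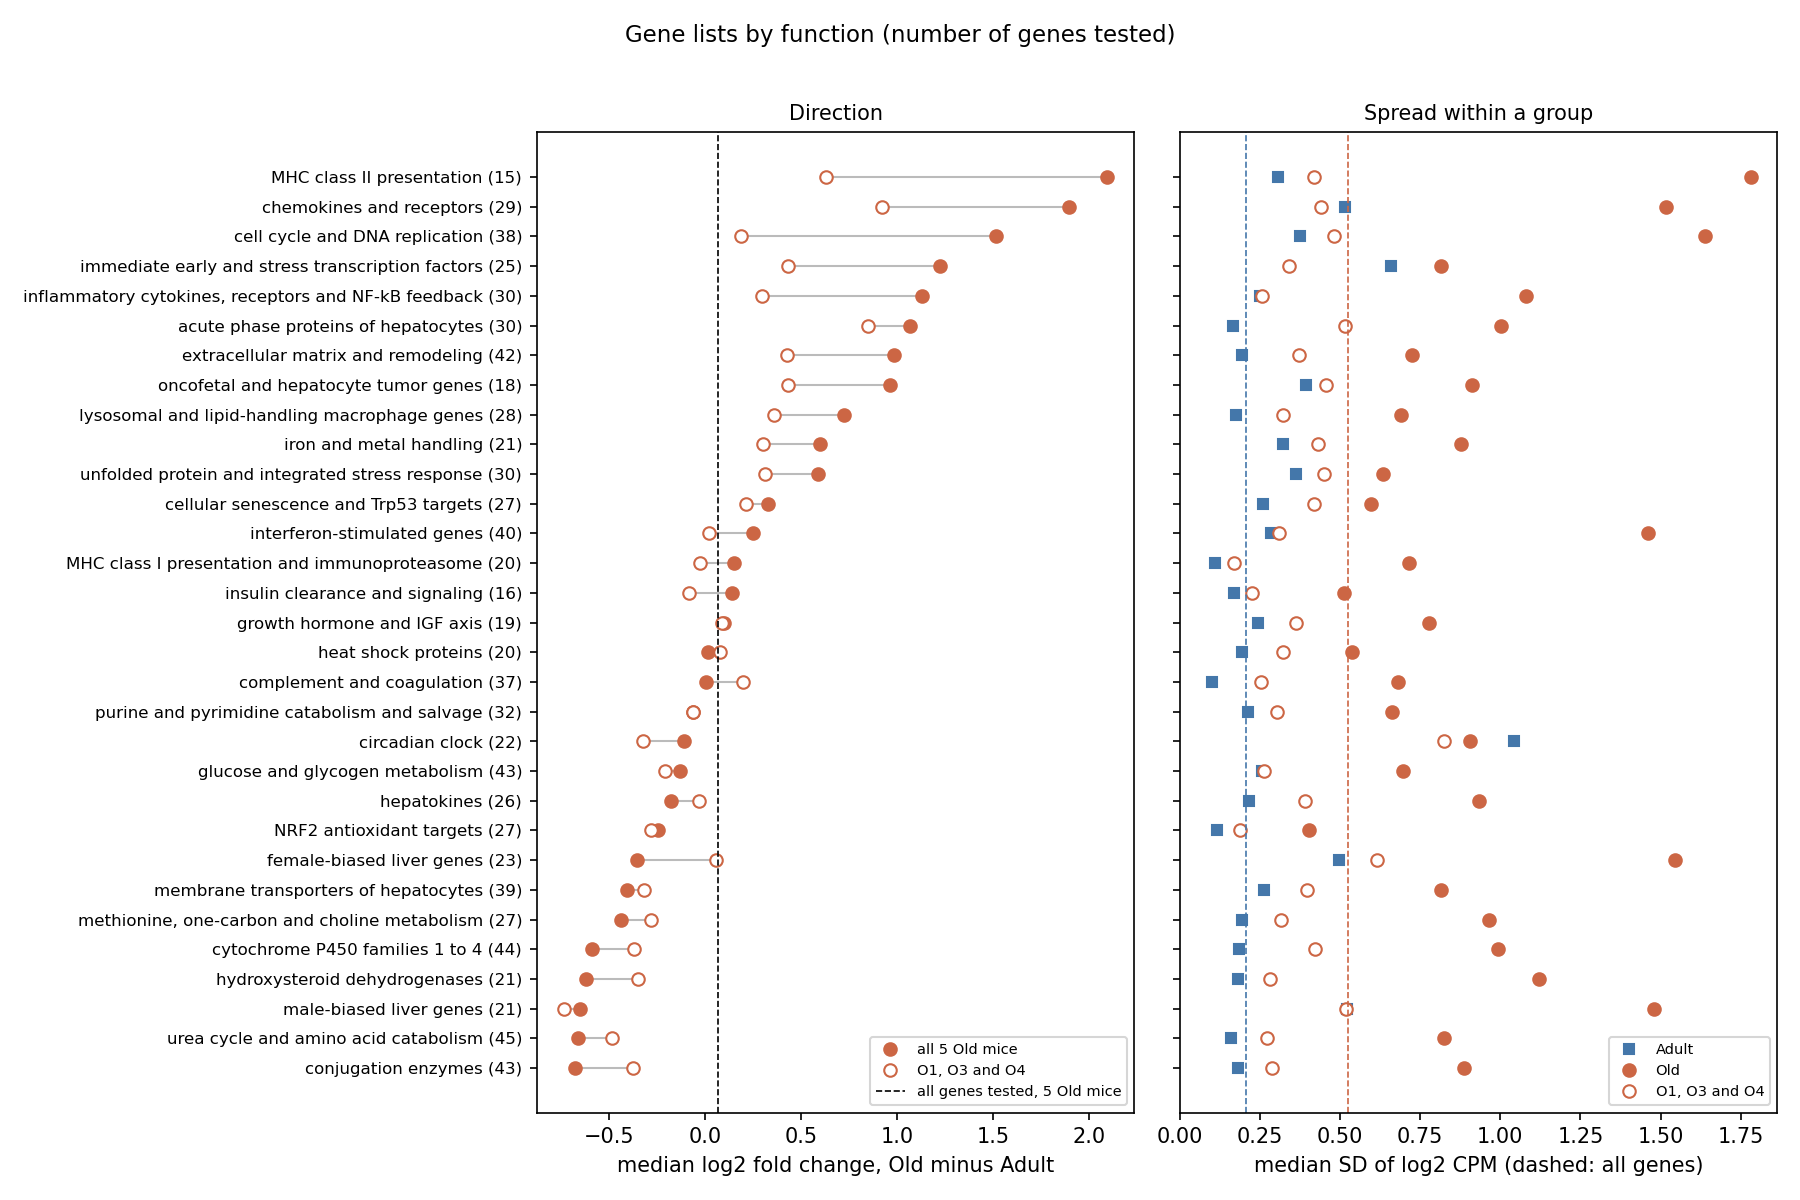
Medians over the genes of 31 functional lists, with the number of genes tested in brackets: on the left the median log2 fold change of Old minus Adult with all 5 Old mice (filled) and with O1, O3 and O4 (open), on the right the median SD of log2 CPM within Adult mice (squares), Old mice (filled circles) and O1, O3 and O4 (open circles); dashed lines mark all genes tested. The median SD over all genes was 0.205 in Adult and 0.525 in Old mice, the hydroxysteroid dehydrogenases had 0.180 and 1.12, and the circadian clock list had 1.04 and 0.905.

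Of 29 chemokine and receptor genes 12 rose with all Old mice and 6 without O2 and O5, and the median log2 fold change was 1.90 and 0.92. Of 30 inflammatory cytokine, receptor and NF-kB feedback genes 7 rose and 1 fell, median 1.13, and without O2 and O5 3 rose and 2 fell, median 0.30. Of 15 MHC class II genes 3 rose by edgeR (Ifi30, Cd80 and Ctss), 8 by DESeq2 and 0 by limma voom, median 2.09, and 2 by edgeR without O2 and O5, median 0.63. Cd74, the most abundant of them, stood at 113, 86.8, 127, 97.9 and 87.3 CPM in A1 to A5 and at 121, 3138, 208, 142 and 23.1 CPM in O1 to O5. O2 alone was far above the rest, O5 was below all Adult mice, and Cd74 did not pass (edgeR adjusted p = 0.0751). Of 20 MHC class I genes Calr and Pdia3 alone rose, median 0.15. Of 40 interferon-stimulated genes 0 passed in edgeR's test with all Old mice, 2 had an unadjusted p under 0.05, and DESeq2 and limma voom each called 1. Their median was 0.25, and 0.02 without O2 and O5, where edgeR called 1.

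Of 28 lysosomal and lipid-handling macrophage genes 10 rose (Gpnmb, Mmp12, Trem2, Cd63, Ctsz, Itgax, Lgals3, Cd9, Grn and Lpl), and 9 rose without O2 and O5. Trem2, a lipid receptor of macrophages, stood at 0.956, 1.02, 0.912, 0.842 and 0.803 CPM in A1 to A5 and at 6.88, 67.0, 5.09, 4.35 and 3.50 CPM in O1 to O5. O2 was far above the other Old mice, which were all above the Adult mice, and the rise (log2 fold change 4.26 ± 0.82 (SE), edgeR adjusted p = 0.0144) was 2.59 without O2 and O5. Cd207, the lectin langerin, stood at 2.50, 3.13, 2.23, 2.85 and 2.10 CPM in A1 to A5 and at 12.8, 133, 9.05, 19.0 and 3.14 CPM in O1 to O5, with O5 just above the highest Adult mouse, and rose (log2 fold change 3.79 ± 0.94 (SE), edgeR adjusted p = 0.031). Of 42 extracellular matrix genes 14 rose, median 0.98, and 11 of the 14 (78.6%) had no overlap of the groups, against 428 of the 745 higher genes (57.4%), but 5 rose without O2 and O5, median 0.43, and 11 passed in the fit of 8 mice. Col1a1, the main fibrillar collagen chain, stood at 12.9, 10.0, 11.3, 10.3 and 13.1 CPM in A1 to A5 and at 15.5, 90.1, 26.6, 21.2 and 188 CPM in O1 to O5. O5 and O2 were far above O1, O3 and O4, and the rise (log2 fold change 2.56 ± 0.64 (SE), edgeR adjusted p = 0.031) was 0.88 without O2 and O5, where it did not pass with the PDX mice in the fit and passed in the fit of 8 mice. Bmper, a regulator of BMP signaling, stood at 2.61, 1.94, 2.74, 2.42 and 2.21 CPM in A1 to A5 and at 3.61, 3.66, 4.94, 7.65 and 307 CPM in O1 to O5, high in O5 alone, and it passed with all Old mice (log2 fold change 4.78 ± 1.23 (SE), edgeR adjusted p = 0.0347) but, without O2 and O5, only in the fit of 8 mice. Of 38 cell cycle genes 3 rose (Ccne1, Cdt1 and Mki67), median 1.51, and 2 without O2 and O5, median 0.19. Mki67, of dividing cells, stood at 2.25, 1.94, 1.23, 1.21 and 1.69 CPM in A1 to A5 and at 7.94, 62.8, 5.92, 1.90 and 1.77 CPM in O1 to O5, high in O2.

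Of 25 immediate early genes 7 rose (Junb, Btg2, Jun, Ier3, Gadd45b, Egr1 and Cebpd), median 1.22, and 8 without O2 and O5, median 0.43. Of 27 senescence and p53 genes 4 rose, among them Btg2, Cdkn2c and Pmaip1, median 0.33, and 1 without O2 and O5. Cdkn1a and Cdkn2a had log2 fold changes of 1.84 and 1.67 and did not pass. Of 37 complement and coagulation genes 2 rose, among them C5ar1, median 0.00, and 2 different genes rose without O2 and O5. Of 20 heat shock genes Hsp90aa1 alone rose (log2 fold change 0.53 ± 0.14 (SE), edgeR adjusted p = 0.0328), median 0.02. Of 22 clock genes Hlf alone passed and fell (log2 fold change -0.80 ± 0.22 (SE), edgeR adjusted p = 0.0398), and it did not pass in either fit without O2 and O5. Of 18 oncofetal and tumor genes 5 rose (Ly6d, Scd2, Golm1, Tff3 and Akr1c18), median 0.96, and without O2 and O5 1 rose and 1 fell.

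Marker genes of cell types were read as levels in the tissue. Of 11 plasma cell genes 7 rose (Ighm, Derl3, Igkc, Iglc1, Mzb1, Irf4 and Prdm1), and 6 of these 7 also without O2 and O5. Ighm, the IgM heavy chain, stood at 17.4, 12.1, 28.0, 19.0 and 22.4 CPM in A1 to A5 and at 235, 612, 181, 164 and 154 CPM in O1 to O5. O2 was highest, the other 4 Old mice lay close together above the Adult mice, and Ighm rose (log2 fold change 3.76 ± 0.45 (SE), edgeR adjusted p = 0.00118). Immunoglobulin genes held 0.00611% ± 0.00184 (SD, n = 5) of counts in Adult and 0.0629% ± 0.0639 (SD, n = 5) in Old mice (exact two-sided permutation test, adjusted p over 6 shares = 0.0238), with no overlap. The difference was 0.0567 percentage points, and 0.0282 without O2. Without O2 and O5 it was 0.0292 and no longer passed. Of 9 B cell genes Ms4a1, Cd79b, Blk and Cd79a rose and Cr2 fell by edgeR, while 6 rose by DESeq2 and 0 by limma voom. The summed level of the B cell genes was 9.79 to 15.2 CPM in Adult mice and 19.6, 127.6, 109.4, 13.2 and 11.8 CPM in O1 to O5, so O2 and O3 held the rise. Of 11 monocyte and macrophage genes 6 rose, 5 of them also without O2 and O5 (sums of 69.2 to 121.5 CPM in Adult and 154.2, 1173.4, 219.9, 152.6 and 171.9 CPM in Old mice), with Lyz2 the most abundant member by mean log2 CPM. Of 10 neutrophil genes 7 rose by edgeR, 9 by DESeq2 and 1 by limma voom, and without O2 and O5 edgeR called 0 with the PDX mice in the fit, where 7 had an unadjusted p under 0.05, and 2 in the fit of 8 mice. Their sum was 8.38 to 13.8 CPM in Adult mice and 14.8, 259.7, 21.6, 17.2 and 59.2 CPM in O1 to O5. Of 4 myeloid progenitor genes Prtn3, Mpo and Elane rose with and without O2 and O5, and Ms4a3 and Fcnb, which were not tested, had no count in Adult mice. Cebpe, the most abundant of the 4 by mean log2 CPM, went the other way and did not pass (log2 fold change -0.83, edgeR adjusted p = 0.314). In Cebpe 4 Old mice were below all Adult mice. O4 was highest in Prtn3 (63.1 CPM) but stood at 1.15 CPM in Mpo and 0.632 CPM in Elane, where O2 was highest.

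Of 10 markers of the resident Kupffer cell 0 passed by edgeR, DESeq2 or limma voom and 2 had an unadjusted p under 0.05 by edgeR. Their sum was 572.1 to 777.1 CPM in Adult mice and 805.4, 3012.0, 989.4, 652.5 and 311.5 CPM in O1 to O5, with Clec4f the most abundant member by mean log2 CPM. Limma voom also called 0 higher genes in the T and NK cell, platelet and adipocyte and mesothelial lists, where edgeR called 1 each and DESeq2 1, 3 and 1. Of 14 T and NK cell genes Ccl5 alone rose, and their sum was 271.9 CPM in O2 against 8.45 to 16.8 CPM in Adult mice. Of 8 dendritic cell genes 0 passed by edgeR, 2 had an unadjusted p under 0.05, and DESeq2 and limma voom each called 1. Of 11 sinusoidal endothelial genes 0 passed by edgeR, 5 had an unadjusted p under 0.05, DESeq2 called 1 and limma voom 2. Of 11 stellate cell genes Acta2, Col1a1 and Des rose, and 1 of them without O2 and O5. Of 10 erythroid genes 0 passed by edgeR, 2 had an unadjusted p under 0.05, DESeq2 called 1 and limma voom 0, with a sum of 1265.5 CPM in O2 against 193.3 to 287.5 CPM in Adult mice. Pf4 alone of 5 platelet genes rose (log2 fold change 4.93 ± 1.18 (SE), edgeR adjusted p = 0.0289), with 71.2 CPM in O2. Of 8 cholangiocyte genes Krt23 alone passed by edgeR and fell (log2 fold change -1.94 ± 0.51 (SE), edgeR adjusted p = 0.0363), while the median log2 fold change was 1.04, 7 had an unadjusted p under 0.05, and DESeq2 and limma voom each called 3 higher. From O1, O3 and O4 edgeR called 0 of the 8, with 3 at an unadjusted p under 0.05. Of 3 acinar genes of the pancreas Cela2a rose, standing at 0.45, 0.211, 0.547, 0.878 and 0.631 CPM in A1 to A5 and at 1.66, 1.49, 60.9, 64.3 and 0.108 CPM in O1 to O5. O3 and O4 held the acinar signal, with sums of 197.0 and 248.7 CPM against 16.8 to 18.9 CPM in Adult mice. Of 5 adipocyte and mesothelial genes Wt1 alone rose. Of 10 pan-hepatocyte genes Ass1 alone fell, of 10 periportal genes Gls2 alone fell, and of 10 pericentral genes Cyp2e1, Cyp1a2 and Oat fell. The summed pericentral level was 10290.8 to 12615.4 CPM in Adult mice and 5045, 3204.5, 6809.9, 5235 and 3011 CPM in O1 to O5. Pan-hepatocyte sums were 129458.4 to 143531.9 CPM in Adult mice and 207279.9, 78157.3, 133089.3, 167109.5 and 64820.4 CPM in O1 to O5. Periportal sums were 6898.5 to 10248.4 CPM in Adult mice and 4634.1, 4540.3, 6088.5, 7780.4 and 11771.3 CPM in O1 to O5.

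Within-group spread was larger in Old mice for most genes. The SD of log2 CPM was larger in Old than in Adult mice in 14297 of 15808 genes (90.4%), and with O1, O3 and O4 alone in 10423 (65.9%). Its median was 0.205 in Adult, 0.525 in Old and 0.277 in O1, O3 and O4. The ratio of the SDs, Old over Adult, had a median of 2.61, was above 4 in 4328 genes (27.4%) and below 0.25 in 14 (0.0886%). In the limma test of deviations from the group mean, 0 genes passed at an adjusted p under 0.05, and the smallest adjusted p was 0.0804. At an unadjusted p under 0.05, 5949 genes (37.6%) differed in spread, 5917 (37.4%) larger and 32 (0.202%) smaller in Old mice. Without O2 and O5, 643 genes (4.07%) passed with larger and 1 with smaller spread. Without O1, O2, O3, O4 or O5 singly, 3956, 2723, 3949, 4054 or 1588 genes passed with larger spread, and 0 passed without any single Adult mouse. O5 had the outlying value of the Old group in 1216 genes and O2 in 503 of the 1882 genes (11.9%) in which the gap to the next mouse was above the critical gap for 5 mice, against 966 genes (6.11%) in the Adult group.

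All 31 functional lists and all 18 marker lists had a median SD ratio above 1. Among the functional lists the largest were those of the hydroxysteroid dehydrogenases (5.69), MHC class I (5.58), MHC class II (5.56), urea cycle and amino acid (5.03) and interferon-stimulated genes (4.83), against 2.61 over all genes tested. Among the functional lists the smallest were those of the circadian clock (1.03), immediate early (1.12), heat shock (1.70) and unfolded protein (2.07) lists. Among the marker lists the ratio ran from 1.35 (adipocyte and mesothelial) to 7.91 (megakaryocyte and platelet). In the clock list the median SD was 1.04 in Adult and 0.905 in Old mice, and in the immediate early list 0.659 and 0.815. With O1, O3 and O4 alone the ratio was 1.01 for the interferon-stimulated genes and 1.61 for the hydroxysteroid dehydrogenases, against 1.37 over all genes. It was below 1 for the immediate early (0.526), clock (0.852) and inflammatory cytokine (0.872) lists and for the T and NK cell (0.616), neutrophil (0.634), monocyte and macrophage (0.779), adipocyte and mesothelial (0.797) and dendritic cell (0.807) markers. A ratio of an SD from 3 mice to one from 5 need not centre on 1 without change, so values just under 1 decide nothing.

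The genes with the smallest p-values for larger spread did not reach the adjusted threshold and are given as values. Pgrmc1, a heme-binding membrane protein, stood at 1314, 1277, 1288, 1292 and 1316 CPM in A1 to A5 and at 899, 524, 980.1, 983 and 509 CPM in O1 to O5. Adult mice lay between 1277 and 1316 CPM, O2 and O5 were near each other and lowest, and O1, O3 and O4 formed a middle group. The SD of log2 CPM was 0.02 in Adult and 0.49 in Old (limma adjusted p = 0.0804), and the level also fell (log2 fold change -0.74 ± 0.20 (SE), edgeR adjusted p = 0.0408). Ctsd, a lysosomal protease, stood at 257, 254, 264, 256 and 254 CPM in A1 to A5 and at 282, 472, 301, 271 and 469.6 CPM in O1 to O5. O2 and O5 were high and close to each other, and O1, O3 and O4 were near the Adult values, with an SD of 0.02 in Adult and 0.40 in Old. Sdha, a subunit of respiratory complex II, stood at 714, 737, 750.0, 726 and 728 CPM in A1 to A5 and at 486, 297, 616, 553 and 294 CPM in O1 to O5, with O2 and O5 lowest and an SD of 0.03 in Adult and 0.50 in Old. Sucla2, Ak3 and Ghitm, of mitochondria, had the same arrangement of mice, with SDs of 0.02 in Adult and 0.50 in Old, 0.02 in Adult and 0.44 in Old and 0.03 in Adult and 0.40 in Old. The ratio of SDs without O2 and O5 was 3.88 in Pgrmc1, 3.32 in Ctsd, 3.90 in Sucla2, 6.41 in Sdha, 3.50 in Ak3 and 0.954 in Ghitm.

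Capn6, a calpain relative without protease activity, had the smallest p for smaller spread and stood at 1.12, 1.30, 0.821, 0.805 and 1.84 CPM in A1 to A5 and at 3.27, 3.66, 3.58, 3.42 and 3.46 CPM in O1 to O5. The Old mice lay close together and all above the Adult mice, whose values ranged more widely. The SD was 0.47 in Adult and 0.06 in Old (limma adjusted p = 0.0804), and Capn6 rose in level (log2 fold change 1.55 ± 0.27 (SE), edgeR adjusted p = 0.00835). Bcl7c, a subunit of SWI/SNF chromatin remodelers, stood at 4.55, 7.05, 6.84, 5.71 and 5.42 CPM in A1 to A5 and at 8.20, 7.43, 7.43, 7.65 and 7.68 CPM in O1 to O5. Its Old values lay within a narrow range above the Adult ones, with an SD of 0.26 in Adult and 0.06 in Old. Hfe, a regulator of iron uptake, stood at 57.5, 71.1, 66.8, 56.4 and 69.3 CPM in A1 to A5 and at 58.6, 57.3, 60.5, 60.1 and 59.5 CPM in O1 to O5. The Old values lay inside the Adult range with an SD of 0.16 in Adult and 0.03 in Old. In these genes O2 and O5 did not stand apart, and the smaller spread was not past the adjusted threshold in limma's test.

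**Figure D3:**
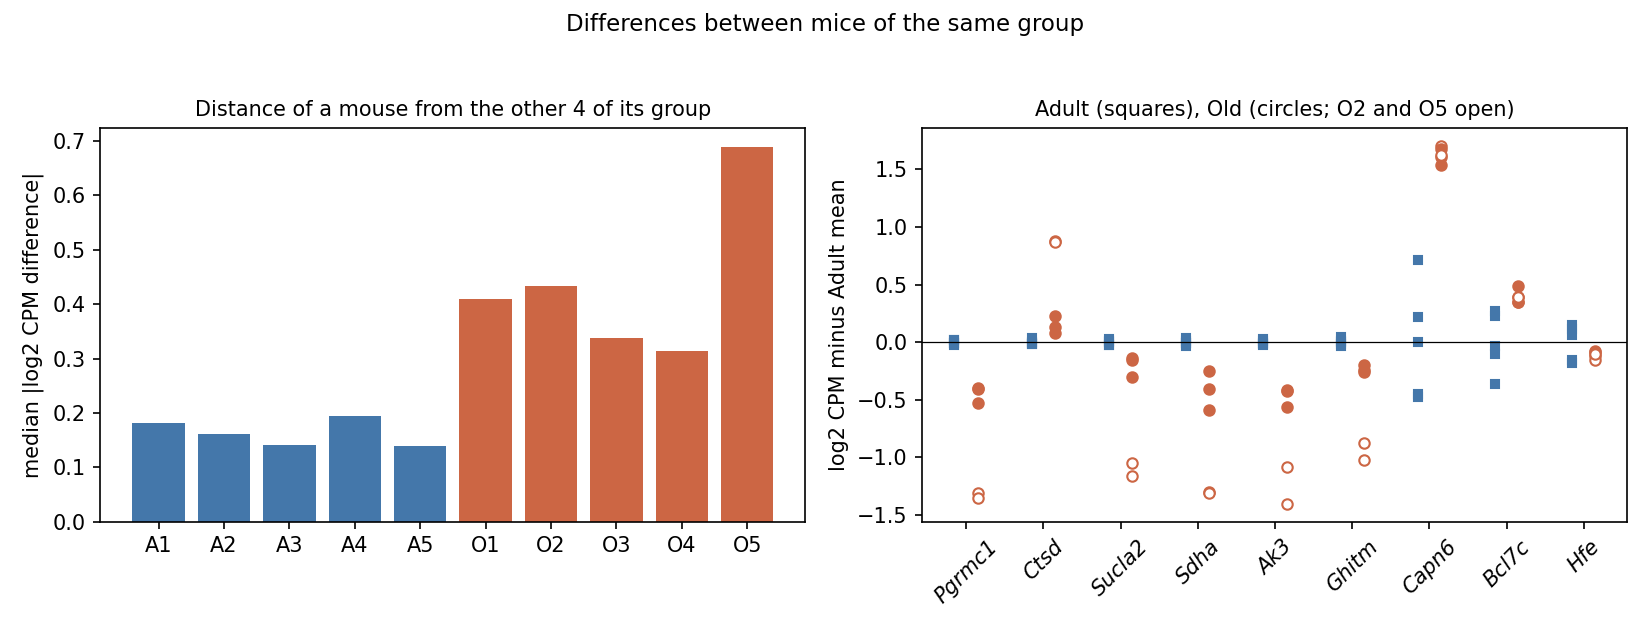
On the left, the distance of each mouse from the other 4 mice of its group, as the median absolute difference of log2 CPM over 15808 genes (bars from 0, Adult blue and Old orange): 0.140 to 0.195 in Adult and 0.315 to 0.689 in Old mice. On the right, log2 CPM of 9 genes among those with the smallest p-values for larger or for smaller spread, relative to the Adult mean, in Adult mice (squares) and Old mice (circles, O2 and O5 open): O2 and O5 lie apart in Pgrmc1, Ctsd, Sucla2, Sdha, Ak3 and Ghitm, and with the other Old mice in Capn6, Bcl7c and Hfe.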

How the data were processed

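Poly(A) RNA of bulk liver was sequenced from 5 Adult, 5 Old and 5 PDX-treated Old mice. Per the labels the authors aligned directional libraries with STAR 2.6.0c to mm10 and counted uniquely aligned read pairs per gene by strand with featureCounts of Subread 1.6.2, and they deposited raw counts and variance stabilized log2 values. The counts were used, and the log2 values served in alternatives alone. Of 55450 gene identifiers 55190 had a symbol in GENCODE M21. Library totals were 22424383 to 36070835 counts, and 3 counts in a library set the floor. edgeR 4.0.16 (filterByExpr, minimum count 10 and minimum total 15, TMM, quasi-likelihood F-test, all 15 mice) tested 15808 genes for Old against Adult, with Benjamini-Hochberg adjustment at 0.05. CPM and log2 CPM (prior count 2) used the TMM-scaled totals. Spread was tested with limma 3.58.1 on absolute deviations from the group mean in the 10 Old and Adult mice. Values per mouse were compared with exact permutation tests, with a two-sided p of 2 times the smaller tail, a form taken after the data had been seen in place of the absolute difference. Figures were drawn with matplotlib 3.10.9 under Python 3.11.15 and R 4.3.3.

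Genes were named by rule: the largest rises and falls of protein-coding genes that passed and did not overlap, at a mean log2 CPM no lower than 1, with and without O2 and O5, the smallest p-values, the largest differences in CPM, the smallest p-values for spread in each direction, and in each of 31 functional and 18 marker lists up to 4 members with the smallest p-values and the most abundant member. The lists and their members were chosen with earlier results of these data known. The scripts were tested on simulated data, where the spread test found changed genes by unadjusted p but none past the adjusted threshold. Alternatives were other tests (DESeq2 1.42.0, limma voom), scalings, filters, samples and libraries left out, and the replicate number as a block.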

Additional observations from a re-analysis of the deposited data

Results flagged for a closer look

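A mouse was marked as apart from its group when the gap between its value and the nearest other mouse took more than 0.71 of the range of the 5 mice of the group. For 165 of the genes named in the text, 330 groups of 5 mice were examined on the log2 CPM scale. In these, 30 values were marked, and chance marks about 1 in 20 groups. Over all genes tested, 11.9% of Old and 6.11% of Adult groups were marked. For shares of counts, O2 was marked as high in immunoglobulin genes at 0.177%.

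Among Old mice, O2 was high in Trem2 (6.07), Mthfd2 (3.78), Pkm (7.93), Ifi30 (7.67), Ctss (9.09), Mpo (4.32), Igkc (8.60), Ccl5 (5.57) and Itgax (5.70), all in log2 CPM. O5 was high in Bmper (8.26) and Sult2a6 (-2.81), the latter a gene with near-identical copies whose value in O5 is under the floor of 3 counts and could not be told from absence, and low in Hsd3b2 (-2.48), Nrep (0.063), A1bg (-1.10), Ugt2b1 (3.72), Gclc (6.41) and Gsta4 (3.19). O3 was low in Cad at 3.85. O1 and O4 were marked in none of these 165 genes.

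Among Adult mice, A1 was high in Hpx (12.02) and Cdkn2c (2.92), and A2 was low in Cd63 (1.32) and Lpl (3.97). A3 was high in Ctsd (8.04) and low in Pmaip1 (-0.59). A4 was high in Hlf (5.88) and Abcc2 (9.00) and low in Adcy1 (-0.97), Blk (-1.46) and Mzb1 (-2.80), and A5 was low in Sult1e1 (-2.04). The values near or below 0 rest on few reads.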

How the results depend on the processing

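The count of 745 higher and 327 lower genes depended on the test and on the mice in the fit. DESeq2 gave 1890 higher and 752 lower genes, limma voom with sample quality weights 1148 and 1176, and the edgeR fit of the 10 Old and Adult mice alone 87 and 23. Without a filter for low counts 156 genes were lower. RLE scaling, a minimum of 1 CPM, a library size without variable gene classes and the removal of O2 and O5 each gave counts within 1.5 times of those reported. A fit of the 8 Old and Adult mice without O2 and O5, which was chosen after seeing the data, gave 578 and 287. Leaving out 1 Adult mouse gave 108 to 194 higher and 48 to 65 lower genes, and leaving out 1 Old mouse 530 to 1380 and 150 to 797. For these counts the cause was not tested.

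The alternatives followed 144 called genes named in the text, none of them named for spread. Of these 144, 36 were still called in the fit of 10 mice, 103 without a filter, 115 by limma voom and 108 without O2 and O5. DESeq2 called all 139 of those it gave an adjusted p. Clec4f reversed without O2, to a log2 fold change of -0.16, and was 1.11 at the most with another mouse left out, and it was not called in any of these fits. Albumin (Alb), -0.06 with all mice and not called, reversed to 0.31 by limma voom, to 0.38 without O2 and O5 in both fits, and to 0.08 and 0.16 without O2 and without O5, with -0.32 as its lowest value with 1 mouse left out. No other gene followed through the alternatives changed sign in any of them, and the genes named for spread were not followed.

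For spread, 0 genes passed in limma's test with all 10 mice, with deviations from the median, squared deviations, the deposited log2 values, a prior count of 5 and a mean log2 CPM of at least 1, while 5949, 1080, 1829, 6069, 6028 and 5077 genes had an unadjusted p under 0.05. Without O2 and O5 643 genes passed as larger and 1 as smaller. Leaving out 1 Old mouse gave 1588 to 4054 larger and 5 to 14 smaller, and leaving out 1 Adult mouse 0 of each. On simulated data the test missed changed genes at the adjusted threshold. Far fewer genes were changed there than had an unadjusted p under 0.05 here, so the power of the test in these data is not known. The counts of 0 therefore say little.

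The mean distance of a mouse from its group was larger in Old than in Adult mice under every alternative run, and the difference was 0.120 without O2 and O5, 0.371 by the mean over genes, and 0.190 to 0.341 with 1 mouse left out. With mice left out, the distances of the 2 groups are taken from means of unequal numbers of mice. For the shares, without O2 and O5 the immunoglobulin difference was 0.0292, the Mup difference -0.0734, the acute phase difference 6.43 and the gene number difference 272.7, and all 4 fell short of the threshold, although 3 against 5 mice cannot give an unadjusted p under 0.0357. With 1 mouse left out the immunoglobulin difference was 0.0282 to 0.0646 and the Mup difference -0.122 to -0.0837, past the threshold each time. The acute phase difference was 3.89 to 6.09 and the gene number difference 294.6 to 705.4, short of the threshold without 5 and 7 of the mice singly. The share of the 10 most abundant genes differed by 2.20 to 4.40 and passed without O2. The two-sided p came first from the absolute difference, and 2 times the smaller tail was taken in its place after the data had been seen. With 5 against 5 mice both forms give the same p. With the absolute difference, leaving out any Adult mouse raised the adjusted p of the immunoglobulin, Mup, acute phase and gene number differences to 0.0833 to 0.119, and without O2 and O5 it was 0.0268 for the immunoglobulin, Mup, acute phase and 10 most abundant gene differences, past the threshold, and 0.0643 for gene number.

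The replicate numbers of the mice do not pair Old with Adult mice. With them as a block, 6 higher and 2 lower genes and 0 genes by spread passed. After removal of group means, mice with the same number had correlations of -0.215 to -0.11 (mean -0.168), against a mean of 0.044 between mice of different numbers, so no mouse resembled most the mouse of its own number, a hint from the data and not the design.

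Depth limits genes under 1 CPM, where 3 counts in a library are the floor. Bulk tissue does not tell cell numbers from RNA per cell. The groups hold 5 mice each, O2 and O5 differ from the other 3, and batch and time of collection are not given per mouse. Copies in the Mup, Sult2a, Serpina1 and Ugt families have similar sequences, so the split of reads between them is uncertain.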
